A study of Mus musculus with 6 samples.

Results

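The mitochondrial genome transcripts described here are the genes whose symbol in the deposited table starts with mt-. They numbered 37 of 54532 genes in the table: 13 mRNAs, 2 ribosomal RNAs (rRNAs) and 22 transfer RNAs (tRNAs). All 37 had the same bounds and strand in the GENCODE release M21 annotation of the mouse mitochondrial chromosome (MT, build GRCm38), which holds 37 genes. Their RNA was measured by RNA-seq in hearts of 3 Ythdc1-CKO mice and 3 Ythdc1 flox/flox mice (called flox control), and both groups had been on normal chow for 15 days. Ythdc1 encodes a nuclear protein that reads N6-methyladenosine (m6A), a base modification of RNA. The CKO is a conditional knockout, written HKO in the series text and CKO in the sample labels. The Cre driver, the cells in which Ythdc1 was deleted, the age and the sex of the mice are not given in the labels, which describe the 3 mice of a group as independent biological replicates. The comparison asks how the transcripts of the mitochondrial genome differ, by class and by strand, when Ythdc1 is conditionally deleted.

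The mitochondrial genome is a small circle of DNA that is transcribed from both strands into long RNAs by the polymerase Polrmt with the factor Tfam. The tRNAs lie between most of the other genes and are cut out by enzymes, which frees the mRNAs and rRNAs, and most of these then receive short tails of A. The mRNAs encode core subunits of respiratory complexes I, III and IV and of the ATP synthase (complex V), while the rRNAs and tRNAs serve the mitochondrion's own ribosome. Heart muscle is rich in mitochondria, and mitochondrial transcripts take a large share of its RNA.

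Poly-T beads were used to select the RNA and fragments of 370 to 420 bp were kept, per the labels' protocols, whereas the mitochondrial tRNA genes are 59 to 75 bases long. Values below at tRNA genes are therefore the reads the authors listed there, not a measure of mature tRNA. Strand marking is not described in the labels, so "plus" and "minus" give the annotated strand of a gene, and reads from both strands at the same place cannot be told apart. FPKM is the deposited level, scaled by gene length and by a factor for each library. Whole reads could be recovered from FPKM and totalled 17434296 to 19360428 per library. The factor did not follow these totals. It was larger in CKO 2 (19.4576) than in CKO 3 (18.1203), although CKO 2 held fewer recovered reads (17872221 against 19360428). The source of the factor was not tested. Ythdc1 itself measured 2.39, 2.57 and 2.34 FPKM in CKO 1, 2 and 3, against 4.31, 3.64 and 4.10 FPKM in flox control 1, 2 and 3 (limma log2 fold change -0.54, adjusted p = 0.015). CKO 3 held 4037 reads of Xist, against 0 to 5 reads in each of the other libraries. It held 33 reads of Ddx3y, a gene of the Y chromosome, against 1004 to 1495 in each of the others. By these genes CKO 3 came from a female mouse and the other libraries from males, so sex was not balanced between the groups. CKO 2 had the lowest mitochondrial share of reads of all 6 libraries.

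**Figure D1:**
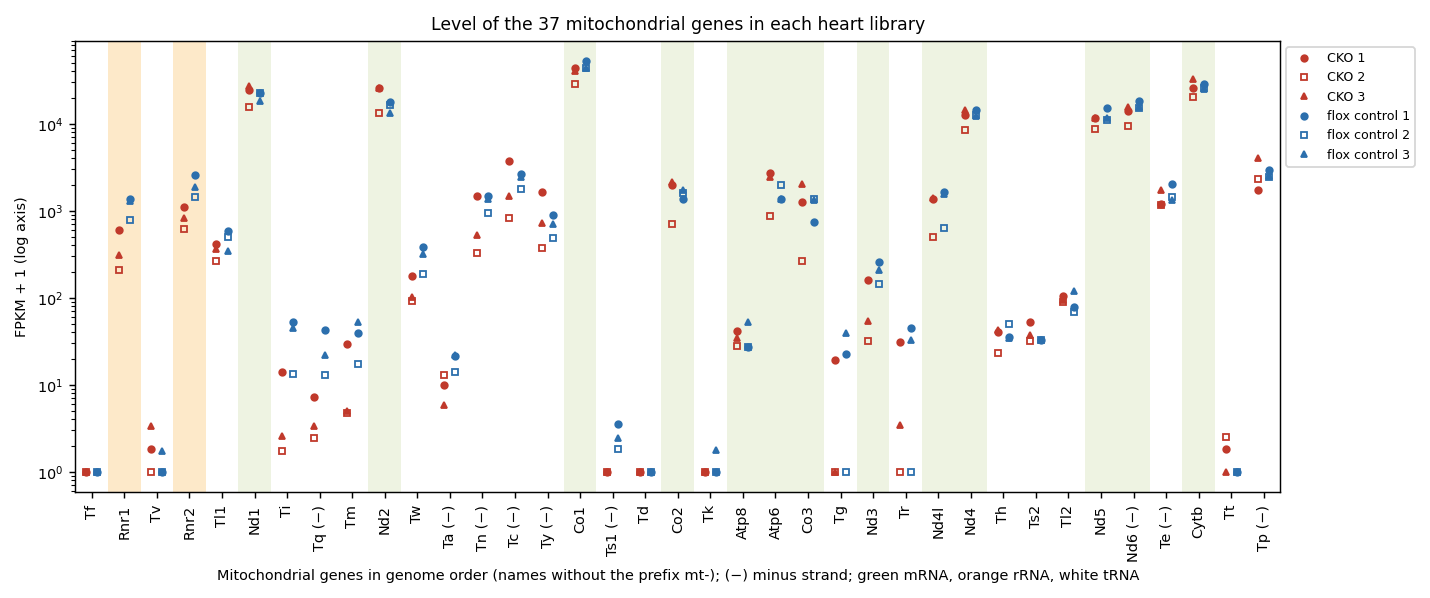
FPKM + 1 on a log axis for each of the 37 mitochondrial genes in genome order, 1 point per library, with CKO libraries left of flox control libraries at each gene. At each of the 2 rRNAs the CKO points lie below all flox control points, the mRNAs overlap between the groups, and tRNA genes range from 0 to 4034 FPKM.

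Of the 37 genes, 31 had a mean of at least 1 FPKM and were tested, and 6 tRNA genes (mt-Tf, mt-Tv, mt-Ts1, mt-Td, mt-Tk and mt-Tt) were too low. In the fit across all genes, 3 mitochondrial genes were lower in CKO hearts, 0 were higher and 28 did not pass (limma, adjusted p under 0.05). The 3 were both rRNAs, mt-Rnr1 and mt-Rnr2, and the tRNA gene mt-Tq. The 3 calls went to 0 without CKO 2, CKO 3, flox control 1 or flox control 3, to 1 without flox control 2 and to 8 without CKO 1. Calls over all genes moved as well, from 1358 with all libraries to 715 without CKO 2, 579 without CKO 3 and 315 without flox control 1. They were 472 without flox control 3, 602 without flox control 2 and 1490 without CKO 1. Over all 12144 genes tested, 11.2% were called, 5.49% lower and 5.69% higher. The median log2 fold change of the 31 tested genes was -0.33, against 0.01 over all genes tested, and 24 of the 31 values were negative. The 3 CKO libraries lay wholly below the 3 flox control libraries at 5 of the 31 genes and wholly above at 0. Over all genes tested, 34.3% did not overlap, 17.4% with CKO wholly below and 16.9% wholly above. In bulk tissue, fewer cells of a type and less RNA per cell cannot be told apart.

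The mitochondrial rRNAs were listed at lower levels in CKO hearts, in RNA that had been selected on poly-T beads. mt-Rnr1 (ENSMUSG00000064337, MT:70-1024, plus strand) is the RNA of the small subunit of the mitochondrial ribosome. It measured 603, 205 and 306 FPKM in CKO 1, 2 and 3, against 1350.4, 782 and 1287 FPKM in flox control 1, 2 and 3. Every CKO library was below every flox control library, and replicate 2 was the lowest of its group on both sides. The means were 371 ± 207 FPKM in CKO and 1139.8 ± 312 FPKM in flox control hearts (SD, n = 3 each), a ratio of CKO to flox control of 0.326. The log2 fold change was -1.72 with an SE of 0.42 (limma, adjusted p = 0.0467).

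mt-Rnr2 (ENSMUSG00000064339, MT:1094-2675, plus strand) is the RNA of the large subunit and follows mt-Rnr1 in the genome, separated from it by mt-Tv. It measured 1092, 622 and 822 FPKM in CKO 1, 2 and 3, against 2552, 1454 and 1896 FPKM in flox control 1, 2 and 3. The groups again did not overlap, and the lowest library of each group was the same as for mt-Rnr1. The means were 846 ± 236 FPKM in CKO and 1968 ± 553 FPKM in flox control hearts (SD, n = 3 each), and the ratio was 0.43. The log2 fold change was -1.22 with an SE of 0.29 (limma, adjusted p = 0.045). Read counts were large for both genes, between 3810 and 24510 reads per library for mt-Rnr1 and between 19153 and 68271 for mt-Rnr2, so counting error was small beside the spread between mice.

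Both rRNA calls sat near the threshold. Leaving out CKO 2, CKO 3 or flox control 1, 2 or 3 moved the limma adjusted p of mt-Rnr1 to 0.1, 0.121, 0.153, 0.0728 and 0.139, and that of mt-Rnr2 to 0.104, 0.107, 0.143, 0.0634 and 0.125. Both calls were kept only when CKO 1 was left out, where the adjusted p was 0.0125 for mt-Rnr1 and 0.0337 for mt-Rnr2. The negative sign held in all 6 cases. With no filter on low values the adjusted p was 0.119 for mt-Rnr1 and 0.177 for mt-Rnr2, and with robust moderation it was 0.0508 for mt-Rnr1.

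Poly-T beads bind stretches of A, so the longest such stretch of each rRNA is printed. The longest run of A within each rRNA is shown in capitals with 20 bases on either side (GENCODE M21 transcripts, GRCm38, plus strand, 5′ to 3′; MT:685-729 for mt-Rnr1 and MT:1468-1514 for mt-Rnr2).
mt-Rnr1: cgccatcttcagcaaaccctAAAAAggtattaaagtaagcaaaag
mt-Rnr2: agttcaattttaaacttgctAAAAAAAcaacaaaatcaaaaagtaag
The run was 5 bases in mt-Rnr1 and 7 in mt-Rnr2, and the longest runs of the 13 mRNAs were 3 bases (mt-Nd6) to 8 bases (mt-Nd2). The added tails are not part of these sequences, and which stretch the beads bound cannot be read from gene-level values.

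Outside the mitochondrial genome, rRNAs, histone genes and Rn7sk were also looked at, since many such RNAs lack a usual tail. The histone genes were picked by symbol, and whether their RNA was tailed was not measured. The 354 annotated nuclear rRNA genes together took 141, 117 and 117 RPM (recovered reads scaled to library total) in CKO 1, 2 and 3, against 109.6, 126 and 169.5 RPM in flox control 1, 2 and 3, and the groups overlapped. The 67 replication-type histone genes took 223, 199 and 228 RPM in CKO libraries, against 141, 149 and 135 in flox control libraries, with no overlap. Rn7sk, a non-coding RNA, held 3, 1 and 0 reads in CKO 1, 2 and 3, against 0, 1 and 21 reads in flox control 1, 2 and 3. The part of these differences between libraries in the rRNA result was not tested.

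Relative to mitochondrial mRNA the rRNAs were lower as well. Per 100 FPKM of summed mitochondrial mRNA, the rRNAs made up 1.02, 0.772 and 0.642 FPKM in CKO 1, 2 and 3, against 2.23, 1.46 and 2.18 FPKM in flox control 1, 2 and 3. The lowest flox control ratio was above the highest CKO ratio. The ratio of mt-Nd1, the next mRNA in the genome, to mt-Rnr2 was 22.7, 25.3 and 32.7 in CKO libraries and 8.84, 15.7 and 9.63 in flox control libraries, and these did not overlap either. The ratio of mt-Rnr1 to mt-Rnr2 overlapped, at 0.552, 0.33 and 0.372 in CKO and 0.529, 0.537 and 0.679 in flox control libraries. These ratios share their terms with the tested values and were given no test.

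**Figure D2:**
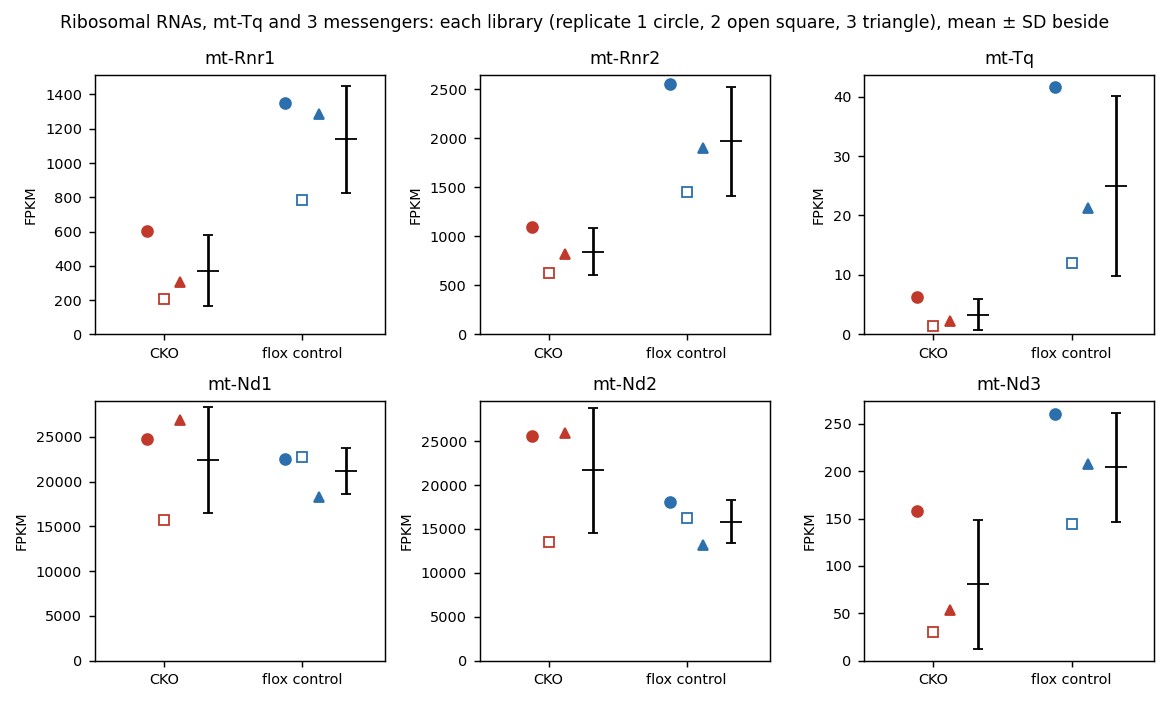
FPKM in each library for mt-Rnr1, mt-Rnr2, mt-Tq, mt-Nd1, mt-Nd2 and mt-Nd3, with CKO left and flox control right, axes from 0, and the mean ± SD beside each group (n = 3). CKO points lie wholly below flox control points for mt-Rnr1, mt-Rnr2 and mt-Tq and overlap them for the 3 mRNAs.

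None of the 13 mRNAs passed the test (limma, 0 at an adjusted p under 0.05), and the groups overlapped at all 13. At an unadjusted p under 0.05, 1 was lower (mt-Nd3) and 0 were higher, against 13.8% lower and 14.0% higher over all genes tested, so this count is near the background. Limma's voom fit on the recovered reads called 0 as well. Their median log2 fold change was -0.17, with 9 negative and 4 positive values. The mRNAs differ widely in level. Per length, mt-Co1 was the highest with a mean of 41959 FPKM over the 6 libraries, followed by mt-Cytb (26523), mt-Nd1 (21832) and mt-Nd2 (18755), and mt-Atp8 was the lowest at 34.2 FPKM. Of 12 neighbouring pairs in this order, 10 had overlapping ranges over the 6 libraries, and only mt-Nd5 above mt-Atp6 and mt-Co3 above mt-Nd3 were apart.

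Of the complex I subunits, mt-Nd1 measured 24794, 15727 and 26873 FPKM in CKO 1, 2 and 3, against 22559.6, 22775 and 18266 FPKM in flox control 1, 2 and 3 (log2 fold change 0.05, and so for the other values in brackets). mt-Nd2 measured 25631, 13463 and 25964 FPKM in CKO libraries, against 18034, 16245 and 13194 FPKM in flox control libraries (0.40 with an SE of 0.36, limma adjusted p = 0.522). At both genes CKO 1 and CKO 3 were above all flox control libraries. CKO 2 was below all of them at mt-Nd1 and below all but flox control 3 at mt-Nd2. mt-Nd4 measured 12589.5, 8579.9 and 14422 FPKM in CKO libraries, against 14316, 12643 and 12231 FPKM in flox control libraries (-0.17). mt-Nd5 measured 11635, 8625 and 11785 FPKM in CKO libraries, against 15369, 11039.8 and 11802 FPKM in flox control libraries (-0.25). At mt-Nd4 and mt-Nd5, which encode proton-pumping subunits like mt-Nd2, CKO 2 was the lowest library of all.

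mt-Nd4l, whose coding sequence overlaps that of mt-Nd4 by 7 bases, measured 1369.9, 499.6 and 1404 FPKM in CKO libraries, against 1635, 642 and 1552 FPKM in flox control libraries (-0.25). mt-Nd6, the only mRNA on the minus strand, measured 14122, 9553 and 15713 FPKM in CKO 1, 2 and 3, against 18261, 15364 and 15719 FPKM in flox control 1, 2 and 3. Its means were 13129.6 ± 3198 FPKM in CKO and 16448 ± 1580.1 FPKM in flox control hearts (SD, n = 3 each), and the log2 fold change of -0.35 did not pass (limma adjusted p = 0.494). The annotated bounds of mt-Nd6 and mt-Nd5 overlap by 14 bases on opposite strands. Reads from either strand within the mt-Nd6 bounds cannot be told apart, so its values may include RNA of the plus strand. The ratio of mt-Nd6 to mt-Nd5 was 1.21, 1.11 and 1.33 in CKO libraries and 1.19, 1.39 and 1.33 in flox control libraries, so the ratio overlapped.

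Among the other complexes, mt-Cytb, the only mitochondrially encoded subunit of complex III, measured 26000.1, 20499 and 32698 FPKM in CKO 1, 2 and 3, against 28949, 25635 and 25358 FPKM in flox control 1, 2 and 3 (-0.04). mt-Co1, the catalytic core of complex IV, measured 43637, 28381 and 40278 FPKM in CKO libraries, against 52355, 43584 and 43522 FPKM in flox control libraries. It overlapped by a narrow margin, since CKO 1 exceeded the lower flox control libraries by little, and its log2 fold change was -0.33 (limma adjusted p = 0.583). mt-Co2, the subunit that takes electrons from cytochrome c, measured 1979, 699 and 2123 FPKM in CKO libraries, against 1369, 1586 and 1738 FPKM in flox control libraries (-0.12). mt-Co3 measured 1273, 267 and 2016 FPKM in CKO libraries, against 752, 1378 and 1313 FPKM in flox control libraries (-0.33). For mt-Co2 and mt-Co3 the CKO libraries held both the highest and the lowest values.

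The ATP synthase subunits share a transcript in which mt-Atp8 and mt-Atp6 overlap by 43 bases. mt-Atp6 measured 2691, 866 and 2467 FPKM in CKO libraries, against 1364, 1969 and 1355 FPKM in flox control libraries (0.22). mt-Atp8 measured 40.4, 27.0 and 33.5 FPKM in CKO libraries, against 26.4, 26.5 and 51.6 FPKM in flox control libraries (0.00). Although the pair lies on the same RNA, the listed levels per length differed widely, and how the authors' counting treated reads over overlapping genes is not given in the sources used here.

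Within the summed mRNA FPKM of a library, 10 of 13 mRNAs took a share that overlapped between the groups, 1 took a higher share in every CKO library and 2 a lower one. In FPKM itself, 34.3% of all genes tested had groups that did not overlap, so this count does not exceed that background. That background is of FPKM and not of shares. mt-Nd2 took 15.4%, 12.6% and 14.8% of mRNA FPKM in CKO 1, 2 and 3, against 10.3%, 10.6% and 9.02% in flox control 1, 2 and 3. mt-Co1 took 26.3%, 26.5% and 22.9% in CKO libraries, against 29.9%, 28.5% and 29.7% in flox control libraries. mt-Nd6 took 8.51%, 8.91% and 8.94% in CKO libraries, against 10.4%, 10.04% and 10.7% in flox control libraries. Shares within a library add to a fixed total, so they do not move separately. These 3 were picked out after their values were seen and were given no test. The ratio of mt-Nd2 to its upstream neighbour mt-Nd1 was 1.03, 0.856 and 0.966 in CKO libraries and 0.799, 0.713 and 0.722 in flox control libraries, again without overlap.

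**Figure D3:**
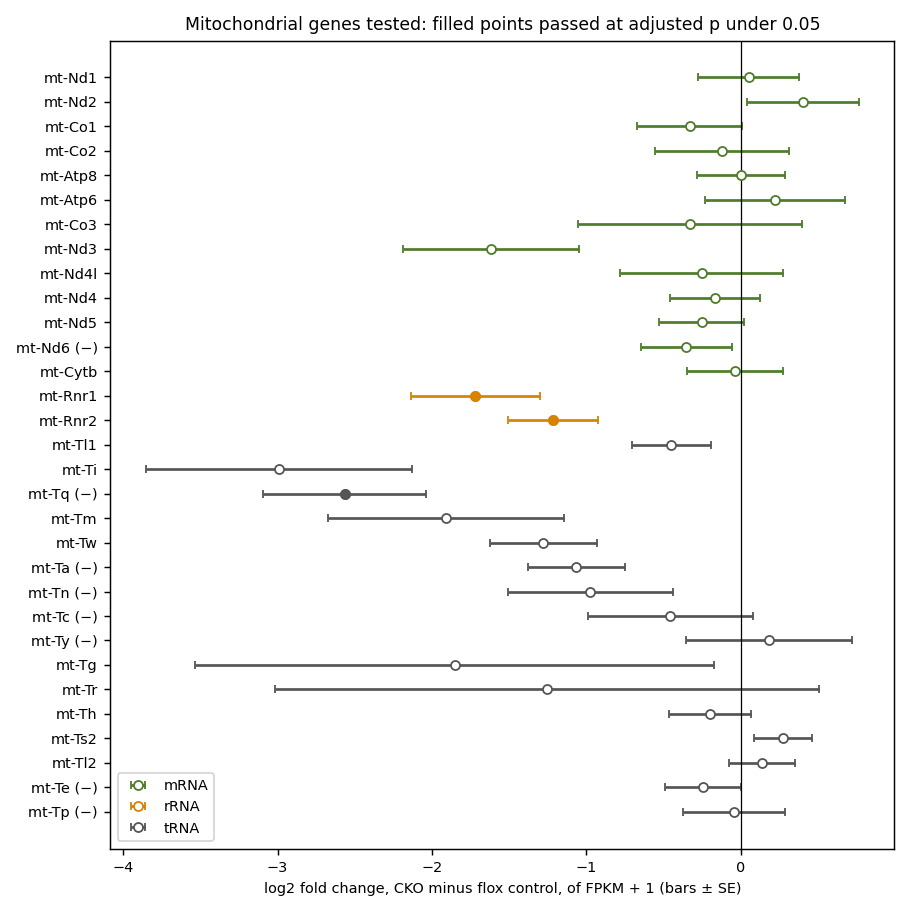
Log2 fold change, CKO minus flox control, of FPKM + 1 for the 31 tested mitochondrial genes in class order, with bars of ± 1 SE. Filled points passed at an adjusted p under 0.05, and they are mt-Rnr1 (-1.72), mt-Rnr2 (-1.22) and mt-Tq (-2.57), while the mRNAs other than mt-Nd3 (-1.62) lie between -0.35 and 0.40.

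mt-Nd3, a small subunit of complex I, stood apart from the other mRNAs. It measured 158, 30.6 and 53.6 FPKM in CKO 1, 2 and 3, against 259.7, 145 and 208 FPKM in flox control 1, 2 and 3. CKO 1 lay above flox control 2, and the other CKO libraries lay below every flox control library. The log2 fold change was -1.62 with an SE of 0.57 and did not pass (limma adjusted p = 0.122). Without CKO 1 it passed (0.0114), and without any of the other 5 libraries the adjusted p was between 0.169 and 0.301.

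This gene has a near-identical copy in the nuclear genome. Mouse chromosome 1 carries 7 annotated copies of mitochondrial mRNA genes side by side on the minus strand (1:24611535-24616197, GRCm38), annotated as unprocessed pseudogenes and listed as genes of their own in the deposited table. The copy of mt-Nd3 is Gm28438, and the aligned bases differ at 1 position, T3C, counted from 1 at the first base of mt-Nd3 (mt-Nd3 base first). The stretch with that mismatch is shown with the differing base in capitals (GENCODE M21, GRCm38, 5′ to 3′ of each gene; MT:9459-9491, plus strand, and 1:24613087-24613119, minus strand).
mt-Nd3: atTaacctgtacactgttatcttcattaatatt
Gm28438: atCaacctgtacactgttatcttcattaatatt
Of the stretches of 150 bases in mt-Nd3, the length of 1 read end, 97.0% also occur in the copy without a difference. Reads from such stretches match both genes equally well, and how they were assigned is not given in the sources used here.

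The split of reads between mt-Nd3 and Gm28438 differed between libraries. The copy held 21.1%, 74% and 66.2% of the reads of the pair in CKO 1, 2 and 3, against 16.2%, 52.4% and 17.5% in flox control 1, 2 and 3. The share was high in CKO 2, CKO 3 and flox control 2, which are also the libraries with the lowest mt-Nd3. Added together, the pair measured 201, 118 and 158 FPKM in CKO libraries, against 309.8, 304 and 252 FPKM in flox control libraries. The sums did not overlap, with means of 159 ± 41.4 FPKM in CKO and 288 ± 31.9 FPKM in flox control hearts (SD, n = 3 each). The log2 fold change of the sum was -0.88 with an SE of 0.21 (limma adjusted p = 0.0445). Adding the copy was chosen after the data were seen. Nuclear transcripts of the copy and mitochondrial reads placed there cannot be told apart.

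**Figure D4:**
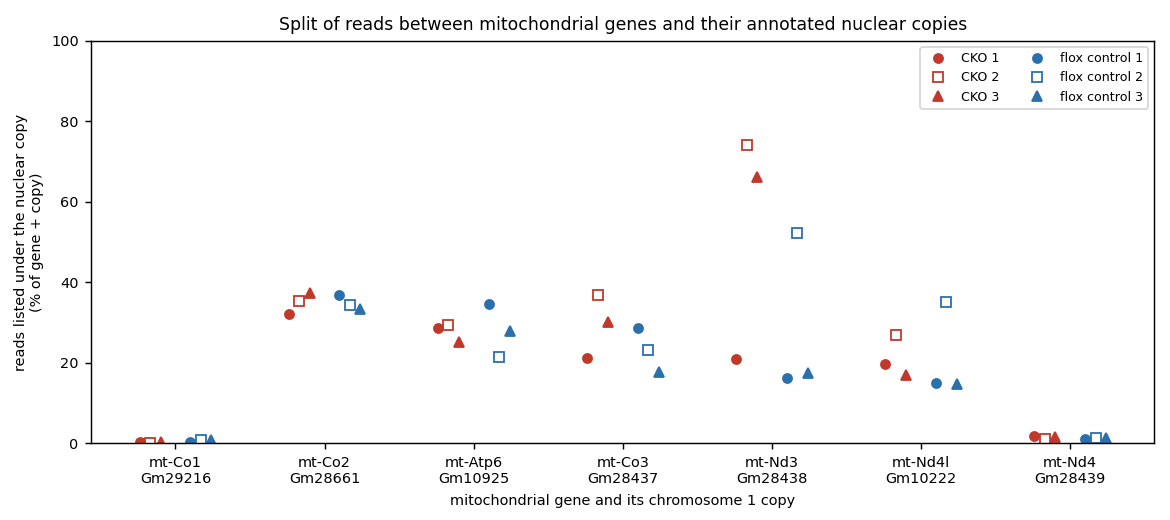
Percent of the reads of a mitochondrial gene and its annotated chromosome 1 copy that were listed under the copy, for each of 7 pairs and 6 libraries, with CKO left of flox control. For mt-Nd3 the copy held 21.1%, 74% and 66.2% of reads in CKO 1, 2 and 3 and 16.2% to 52.4% in flox control libraries, so the groups overlapped. For mt-Co1 and mt-Nd4 it held under 2% in every library.

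The other 6 copies also drew reads. The copies of mt-Co2, mt-Atp6, mt-Co3 and mt-Nd4l cover nearly the whole gene with 0 mismatches in the aligned bases. Of the stretches of 150 bases in these genes, 98.0% to 99.8% also occur in the copy. These copies held 14.8% to 37.5% of the reads of their pair. The copies of mt-Co1 and mt-Nd4 cover 31.3% and 63.6% of the gene and held 0.158% to 1.85% of the reads. With the reads of the copies added, none of these 6 mRNAs passed (limma adjusted p = 0.557 to 0.895). The 5 mRNAs copied over nearly their whole length had mean listed levels of 142 to 1785 FPKM, and the other mRNAs had 11709 FPKM or more, except mt-Atp8 at 34.2 FPKM. mt-Atp8 was not matched to any of these copies. The rest of the table and nuclear sequence beyond the annotated genes were not searched for further copies. Levels of the 5 copied mRNAs relative to the rest are therefore uncertain.

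The copy of mt-Co1, Gm29216, was itself listed at 484, 141 and 382 FPKM in CKO 1, 2 and 3, against 743, 1069 and 1033 FPKM in flox control 1, 2 and 3. The groups did not overlap, but the log2 fold change of -1.65 did not pass (limma adjusted p = 0.0649).

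The tRNA genes gave the lowest and the most uneven values. Of 22, 2 were listed at 0 in all 6 libraries (mt-Tf and mt-Td), and 14 held reads in every library. Of 16 tested, 1 was called lower and 0 higher, 13 had a negative sign, and the median log2 fold change was -0.71. Levels differed by annotated strand: 5 of the 6 tRNA genes with the highest mean level lie on the minus strand, which carries 8 of the 22.

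mt-Tq (ENSMUSG00000064343, MT:3772-3842, minus strand), the gene of the tRNA for glutamine, was listed at a lower level in CKO hearts. It measured 6.28, 1.45 and 2.33 FPKM in CKO 1, 2 and 3, against 41.7, 12 and 21.2 FPKM in flox control 1, 2 and 3. These levels rest on few reads, 8, 2 and 3 in CKO libraries and 50, 15 and 30 in flox control libraries. The groups did not overlap and the log2 fold change was -2.57 with an SE of 0.53 (limma adjusted p = 0.0301). The call was lost without CKO 2 (0.0827), CKO 3 (0.0874), flox control 1 (0.0897) or flox control 3 (0.0894), and with no filter on low values (0.0756).

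mt-Tq shares its last 3 bases with mt-Ti, the tRNA for isoleucine on the plus strand. Both genes are printed 5′ to 3′ on their own strand with the shared bases in capitals (GENCODE M21, GRCm38; MT:3772-3842, minus, and MT:3706-3774, plus), since reads reaching over this junction can come from either RNA.
mt-Tq: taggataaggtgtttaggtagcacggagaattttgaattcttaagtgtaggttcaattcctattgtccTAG
mt-Ti: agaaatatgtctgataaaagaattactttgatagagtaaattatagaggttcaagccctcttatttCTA
mt-Ti held 16, 1 and 2 reads in CKO 1, 2 and 3, against 60, 15 and 61 reads in flox control 1, 2 and 3. The log2 fold change was -2.99 with an SE of 0.86 and did not pass (limma adjusted p = 0.0729). CKO 1 held 1 read more than flox control 2, so the read counts overlapped. mt-Tm, the tRNA for methionine next to this pair, measured 28.3, 3.72 and 4 FPKM in CKO libraries, against 38.6, 16.5 and 51.6 FPKM in flox control libraries (-1.91, limma adjusted p = 0.164). The 3 tRNA genes between mt-Nd1 and mt-Nd2 together held 59, 8 and 10 reads in CKO libraries, against 155, 50 and 162 reads in flox control libraries, and CKO 1 lay above flox control 2.

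The next cluster, between mt-Nd2 and mt-Co1, holds mt-Tw and 4 tRNA genes of the minus strand. mt-Tw, the tRNA for tryptophan, measured 176, 89.7 and 100.5 FPKM in CKO libraries, against 388, 189 and 315 FPKM in flox control libraries, without overlap (-1.28 with an SE of 0.35, limma adjusted p = 0.0625). mt-Ta, the tRNA for alanine, measured 8.89, 11.9 and 4.80 FPKM in CKO libraries, against 20.6, 13.2 and 21.1 FPKM in flox control libraries, (-1.06, limma adjusted p = 0.0789). Its levels rest on 11, 16 and 6 reads in CKO libraries and 24, 16 and 29 reads in flox control libraries, so the FPKM did not overlap but CKO 2 and flox control 2 held the same number of reads. Neither mt-Tw nor mt-Ta passed the threshold. mt-Tn, for asparagine, measured 1469, 329 and 522 FPKM in CKO libraries, against 1491, 932 and 1377 FPKM in flox control libraries (-0.97). mt-Tc, for cysteine, measured 3726, 818 and 1461 FPKM in CKO libraries, against 2659, 1774 and 2436 FPKM in flox control libraries (-0.46). mt-Ty, for tyrosine, measured 1664, 370.5 and 717 FPKM in CKO libraries, against 892, 484 and 696 FPKM in flox control libraries (0.19). At mt-Tc and mt-Ty, CKO 1 was the highest library and CKO 2 the lowest. The cluster as a whole held 8506, 2120 and 3416 reads in CKO libraries, against 6230, 4025 and 6533 reads in flox control libraries, and the groups overlapped.

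The other well-covered minus-strand tRNA genes are mt-Te and mt-Tp. mt-Te, for glutamate, lies next to mt-Nd6 and measured 1196, 1160.5 and 1724 FPKM in CKO libraries, against 2022, 1458 and 1347 FPKM in flox control libraries (-0.24). mt-Tp, for proline, measured 1715, 2336 and 4034 FPKM in CKO libraries, against 2944, 2420.3 and 2493 FPKM in flox control libraries (-0.05). It had the highest mean level of all tRNA genes, and CKO 3 was its highest library. Its immediate neighbour on the plus strand, mt-Tt for threonine, held 1, 2 and 0 reads in CKO libraries and 0 reads in each flox control library. The pair is printed because equal lengths of adjacent sequence were listed at such different levels (GENCODE M21, GRCm38, 5′ to 3′ on each gene's own strand; MT:15356-15422, minus, and MT:15289-15355, plus; no bases in capitals).
mt-Tp: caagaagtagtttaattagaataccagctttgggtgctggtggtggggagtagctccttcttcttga
mt-Tt: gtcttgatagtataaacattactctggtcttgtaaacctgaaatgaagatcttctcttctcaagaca

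On the plus strand, mt-Tl1, the leucine tRNA that follows mt-Rnr2, measured 417, 263 and 361 FPKM in CKO libraries, against 582, 503 and 345 FPKM in flox control libraries (-0.45, limma adjusted p = 0.308). The tRNA genes mt-Th, mt-Ts2 and mt-Tl2 between mt-Nd4 and mt-Nd5 held 237, 185 and 208 reads together in CKO libraries, against 165, 175 and 251 reads in flox control libraries. These overlapped, and 2 of the 3 genes (mt-Ts2 at 0.28 and mt-Tl2 at 0.14) had positive log2 fold changes that did not pass. mt-Tg and mt-Tr on either side of mt-Nd3 held 59, 0 and 3 reads together in CKO 1, 2 and 3, against 75, 0 and 95 reads in flox control 1, 2 and 3. Both replicate 2 libraries held none. Of the untested genes, mt-Ts1 held 0 reads in each CKO library, against 3, 1 and 2 reads in flox control libraries. mt-Tv held at most 3 reads in a library and mt-Tk at most 1.

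By annotated strand, the plus strand carries 28 genes and the minus strand 9. Of 23 plus-strand genes tested, 2 were called lower (the rRNAs), and the median log2 fold change was -0.25. Of 8 minus-strand genes tested, 1 was called lower (mt-Tq), and the median was -0.40. Among tRNA genes alone the medians were -1.25 over 9 on the plus strand and -0.46 over 7 on the minus strand. Plus-strand tRNA genes held 1122, 694 and 833 reads in CKO 1, 2 and 3, against 1522, 1094 and 1417 reads in flox control 1, 2 and 3. Minus-strand tRNA genes held 11845, 6609 and 10350.0 reads in CKO libraries, against 11538, 8434 and 11326 reads in flox control libraries. The groups overlapped in both sums, and minus-strand tRNA genes held most of the tRNA reads in every library.

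As shares of all recovered reads, mitochondrial genes took 20.7%, 14.4% and 19.6% in CKO libraries, against 21.0%, 18.4% and 19.1% in flox control libraries. The mRNAs made up nearly all of this, at 18 ± 3.33% of reads in CKO and 19 ± 1.25% in flox control hearts (SD, n = 3 each). CKO 2 was low. The difference of -1.06 percentage points was smaller than the spread between the CKO libraries, and without CKO 2 it was 0.835. The rRNAs took 0.237%, 0.128% and 0.149% of reads in CKO libraries, against 0.508%, 0.298% and 0.444% in flox control libraries, and these did not overlap. The tRNA genes took 0.0577 ± 0.0168% in CKO and 0.0646 ± 0.0105% in flox control hearts, a difference smaller than either spread.

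The plus-strand genes took 19.9%, 13.8% and 18.8% of reads in CKO libraries, against 20.1%, 17.6% and 18.2% in flox control libraries. The minus-strand genes took 0.822%, 0.577% and 0.817% in CKO libraries, against 0.968%, 0.827% and 0.915% in flox control libraries. The minus-strand shares did not overlap, though the highest CKO library and the lowest flox control library lay close together. Of mitochondrial reads only, the minus strand took 3.97%, 4.02% and 4.17% in CKO libraries, against 4.6%, 4.49% and 4.78% in flox control libraries. This was a narrow range in each group and a lower one in CKO, with means of 4.05 ± 0.104% in CKO and 4.63 ± 0.146% in flox control hearts (SD, n = 3 each). Most of these reads were listed at mt-Nd6, where RNA of the plus strand cannot be told apart from that of the minus strand. No test was made on the shares.

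Nuclear genes for mitochondrial DNA upkeep and mitochondrial RNA handling were counted from a list of 75 symbols, of which 74 were found and 68 tested. In CKO hearts 14 fell and 0 rose (limma, adjusted p under 0.05), that is 20.6% of those tested, against 5.49% lower over all genes tested. At an unadjusted p under 0.05, 20 were lower and 2 higher, against 13.8% lower and 14.0% higher over all genes tested. Voom called 14 lower and 0 higher, against 6.44% lower and 5.98% higher over all genes. The list's median log2 fold change was -0.13, against 0.01 over all genes tested. The largest group among the 14 was that of rRNA modification and ribosome assembly, where 7 of 15 tested genes fell: Mrm1, Mrm2 and Mrm3, which methylate ribose in the large rRNA in human cells, Mettl15, which methylates the small rRNA, Mettl17, which helps assemble the small subunit, Ptcd3, a protein of that subunit, and Fastkd2, which binds the large rRNA. These roles were assigned after the data were seen, so the count by role is a description. Transcription had 2 of 6 (Mterf2 and Tefm), RNA cleavage, tails and stability 2 of 19 (Fastk and Fastkd5), tRNA modification 1 of 12 (Osgepl1), translation and membrane insertion 2 of 4 (Oxa1l and Taco1), and DNA copying 0 of 12.

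Mrm3 measured 3.77, 3.98 and 3.08 FPKM in CKO 1, 2 and 3, against 8.10, 10.7 and 8.94 FPKM in flox control 1, 2 and 3 (log2 fold change -1.15, limma adjusted p = 0.00607). Mrm2 measured 3.32, 3.03 and 3.86 FPKM in CKO libraries, against 5.98, 8.09 and 7.20 FPKM in flox control libraries (-0.87, limma adjusted p = 0.0112). Mettl15 measured 1.98, 1.92 and 2.45 FPKM in CKO libraries, against 3.95, 3.58 and 3.53 FPKM in flox control libraries (-0.59, limma adjusted p = 0.0172). The groups were apart at all 3 of these rRNA-modifying genes.

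Mterf2, a DNA-binding protein of the mitochondrial termination factor family, measured 2.54, 2.55 and 3.15 FPKM in CKO libraries, against 8, 7.47 and 6.18 FPKM in flox control libraries (-1.13, limma adjusted p = 0.00569). Tefm, the elongation factor of the mitochondrial polymerase, measured 6.03, 7.73 and 6.85 FPKM in CKO libraries, against 10.7, 11.5 and 11.1 FPKM in flox control libraries (-0.62, limma adjusted p = 0.015). Osgepl1, which modifies an adenosine beside the anticodon of some mitochondrial tRNAs, measured 3.20, 2.98 and 3.25 FPKM in CKO libraries, against 6.2, 6.19 and 6.30 FPKM in flox control libraries (-0.80, limma adjusted p = 0.00414). Its libraries varied little within a group, and it had the smallest adjusted p of the list. Fastk, which is needed for mt-Nd6 RNA, measured 34.4, 30.2 and 35.2 FPKM in CKO libraries, against 49.8, 50.8 and 49.5 FPKM in flox control libraries (-0.58, limma adjusted p = 0.0162). Fastkd5, which acts in human cells in cutting transcripts that no tRNA flanks, measured 0.665, 0.852 and 0.897 FPKM in CKO libraries, against 1.59, 1.83 and 2.08 FPKM in flox control libraries (-0.65, limma adjusted p = 0.0218). Its mean was 0.805 FPKM in CKO and 1.83 FPKM in flox control hearts. Fastkd5 thus reached the filter mean of 1 FPKM only through the flox control libraries.

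Osgepl1, Mterf2, Mrm3 and Mrm2 passed whichever library was left out, and of the 14 lower calls, 10 were kept without CKO 1, 6 without CKO 2, 6 without CKO 3, 4 without flox control 1, 4 without flox control 2 and 5 without flox control 3. Without CKO 2, 1 other gene passed, in the higher direction: Tk2, a mitochondrial nucleoside kinase named after its values were seen (limma adjusted p = 0.0442, against 0.0529 with all libraries). The list gave 6 lower and 0 higher calls when every library was scaled to the same FPKM sum. Over all 12144 genes tested that scaling gave 424 lower and 565 higher. With every library scaled to the same FPKM sum outside the mitochondrial genome, the list gave 11 lower calls and 1 higher call. Across all genes tested this second scaling gave 593 lower and 685 higher. The core factors did not pass. Tfam measured 10.4 ± 0.574 FPKM in CKO and 9.96 ± 0.867 FPKM in flox control hearts (0.06, limma adjusted p = 0.718). Polrmt measured 8.35 ± 0.917 FPKM in CKO and 8.82 ± 0.0116 FPKM in flox control hearts (-0.08, limma adjusted p = 0.654). Lrpprc, which stabilises mitochondrial mRNAs, measured 19.6 ± 2.92 FPKM in CKO and 24.5 ± 2.45 FPKM in flox control hearts (-0.31, limma adjusted p = 0.2). The DNA helicase Twnk (-0.37, limma adjusted p = 0.0878) and the DNA polymerase Polg (-0.11, limma adjusted p = 0.613) did not pass either.

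**Figure D5:**
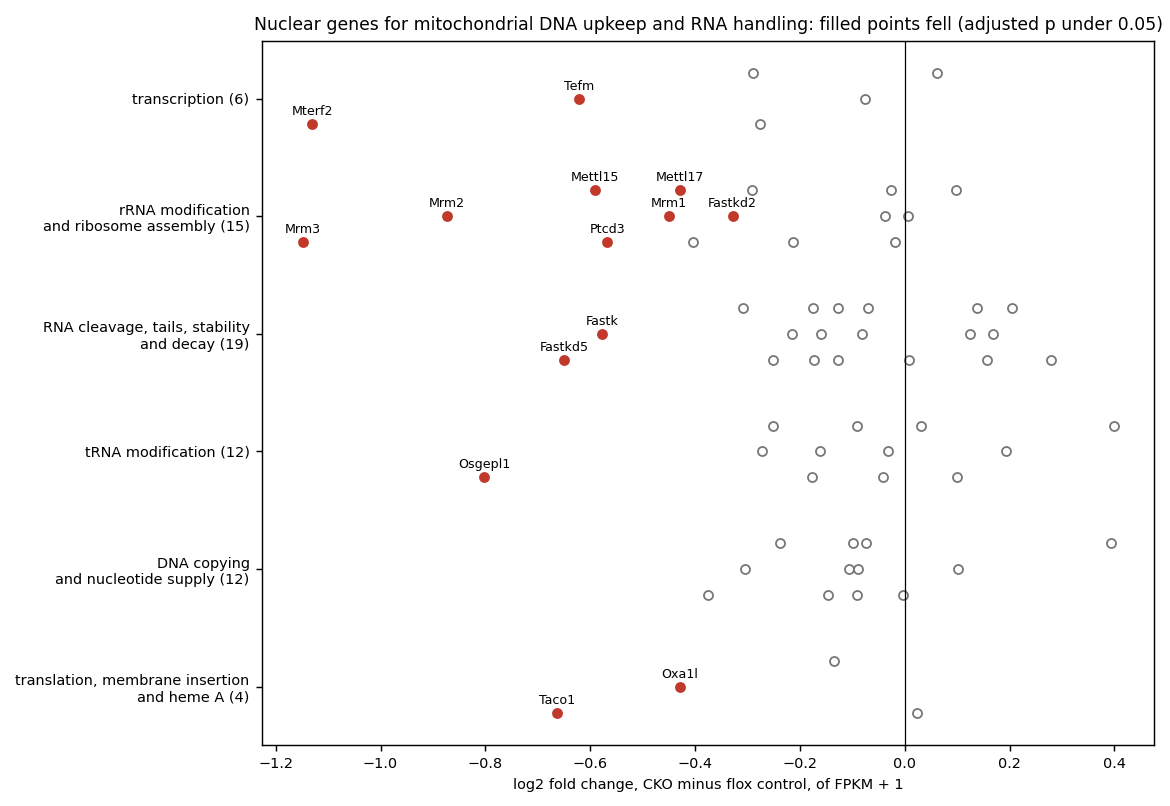
Log2 fold change, CKO minus flox control, of FPKM + 1 for the 68 tested nuclear genes of mitochondrial DNA upkeep and RNA handling, by role, with the number tested in brackets; points are spread vertically only to separate them. Filled points fell at an adjusted p under 0.05, and 7 of the 14 lie in the group of rRNA modification and ribosome assembly.

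The nuclear subunits of the complexes that the 13 mRNAs serve were set beside them. Of 78 tested, 6 fell (Ndufs1, Ndufb2, Ndufb10, Uqcrc1, Uqcrfs1 and Cox7a1) and 0 rose, that is 7.69% against 5.49% over all genes tested, and the median log2 fold change was -0.37. At an unadjusted p under 0.05, 31 were lower and 0 higher, against 13.8% lower over all genes tested, and voom called 10 lower and 0 higher, against 6.44% lower over all genes. Of the 6 calls, 2 were kept without CKO 1, 1 without CKO 2 and 3 without CKO 3, where 3 other subunits also passed. Leaving out flox control 1, 2 or 3 gave 0 in each case, and scaling to the same FPKM sum outside the mitochondrial genome gave 20 lower and 0 higher. Over all 12144 genes tested that scaling gave 593 lower and 685 higher. Most nuclear subunits, 71 of 78, had negative values whether or not they passed. In complex I the median was -0.41 over 37 nuclear subunits and -0.25 over the 7 mitochondrial ones. In complex IV it was -0.27 over 16 nuclear and -0.33 over 3 mitochondrial subunits. In complex V it was -0.35 over 16 nuclear and 0.11 over 2 mitochondrial subunits, and in complex III -0.48 over 9 nuclear subunits beside -0.04 for mt-Cytb. The nuclear median was the lower one in complexes I, III and V and the higher one in complex IV. Cox7a1, the muscle form of a complex IV subunit, measured 308 ± 89.9 FPKM in CKO and 667 ± 93.4 FPKM in flox control hearts (-1.15, limma adjusted p = 0.0361). The difference between nuclear and mitochondrial subunits was not tested.

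Cell type markers were summed for each library, in lists that were chosen with earlier results known. The 7 cardiomyocyte markers, 1 of which was called lower, summed to 12375 to 16023 FPKM in CKO and 15821 to 19206 FPKM in flox control libraries. The 4 atrial markers, 1 called higher and 1 lower, summed to 547 to 2100.0 FPKM in CKO and 153 to 395 FPKM in flox control libraries, without overlap. The 5 brown and white adipocyte markers, of which 1 was tested and none called, summed to 37.5 to 85.9 FPKM in CKO and 23.0 to 31.4 FPKM in flox control libraries, also without overlap. The atrial and adipocyte sums were thus the only ones that did not overlap, and a sum need not hold for each of its markers. The atrial marker Myl7 went the other way. It measured 39.2, 24.1 and 40.7 FPKM in CKO libraries, against 154, 56.6 and 244 FPKM in flox control libraries (limma adjusted p = 0.0631). The 5 endothelial markers, 1 of which was called lower, summed to 179 to 244 FPKM in CKO and 243 to 245 FPKM in flox control libraries. The 5 macrophage markers summed to 47.8 to 215 FPKM in CKO libraries, with CKO 1 the highest, and to 57.7 to 102 FPKM in flox control libraries. The 5 fibroblast markers summed to 372 to 513 FPKM in CKO and 288 to 395 FPKM in flox control libraries. None of the macrophage or fibroblast markers was called, nor of the 5 mural markers (360.3 to 522 FPKM in CKO, 396.6 to 760.1 FPKM in flox control libraries) or the 5 red cell markers (656 to 1309 FPKM in CKO, 744 to 1148 FPKM in flox control libraries). No marker was listed at 0 in all 6 libraries. The part of cell makeup in the mitochondrial results was not tested.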

How the data were processed

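Messenger RNA of 6 mouse heart libraries was measured by RNA-seq, and groups were taken from the sample titles and genotypes. Per the labels' protocols, RNA was selected on poly-T beads, primed with random hexamers and read for 150 bp from both ends. The authors deposited FPKM values for 54532 genes. Per the submitters' processing notes, the build was GRCm38.p6 and the tools included featureCounts 1.5.0-p3, HISAT2 2.0.5, CASAVA and DESeq2 1.20.0, with no roles given. How reads with several matches, or over overlapping genes, were counted is not given in the sources used here. The reads behind the deposited FPKM were recovered, because the product of FPKM and gene length was a whole multiple of a library's own unit for all genes (tolerance 0.001).

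The 12144 genes that averaged 1 FPKM or more entered limma 3.58.1 (R 4.3.3) as log2(FPKM + 1). The model held genotype alone and a trended variance, and gave 2-sided p-values adjusted by Benjamini-Hochberg over all genes tested, called under 0.05. Log2 fold changes are on this scale, which understates changes of low genes. The members, the lists and the tests were chosen with earlier results of these data known. All 37 mitochondrial genes may be named. Values per library are given for the mRNAs, the rRNAs, called tRNA genes and the 6 others with the highest mean, from the upkeep list for up to 8 called genes with the smallest adjusted p and 5 core factors, and for up to 2 called nuclear subunits per complex. Values of other tRNA genes, Gm29216 and shares were picked after they were seen. Sequences came from GENCODE M21 transcripts and were aligned with Biopython 1.88. The fit was tested on simulated data. Alternatives covered pseudocounts of 0.1 and 0.01, filters, scalings, variance models, voom on reads, a block for replicate number, each library left out, and the reads of nuclear copies added, the last chosen after the data were seen. Other computing used pandas 2.3.3 and numpy 2.4.6 under Python 3.11.15, and matplotlib 3.10.9 drew the plots.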

Additional observations from a re-analysis of the deposited data

How the results depend on the processing

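Depth limits the low tRNA genes, which rest on a few reads per library, and not the rRNAs or the abundant mRNAs. With no filter on low values, 798 genes, 1 mitochondrial gene, 8 genes of the upkeep list and 0 nuclear subunits were called, against 1358, 3, 14 and 6. That mitochondrial gene was mt-Ts1, which is not among the 3 and held 0 reads in each CKO library and 3, 1 and 2 reads in flox control libraries. For the upkeep list, a mean of at least 5 FPKM gave 8, TPM gave 6 and equal FPKM sums gave 6. Over all genes these settings called 924 of 6591, 1006 of 14557 and 989 of 12144 tested. For the nuclear subunits, equal FPKM sums outside the mitochondrial genome gave 20 and voom gave 10. Over all 12144 genes tested these gave 1278 and 1508. Leaving out each library in turn gave 315 to 1490 calls over all genes, 0 to 8 mitochondrial, 4 to 10 of the upkeep list and 0 to 6 nuclear subunits. Why these counts moved was not tested.

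With the replicate number as a block (replicate block), 715 genes, 5 mitochondrial genes, 5 genes of the upkeep list and 0 nuclear subunits were called. Same-numbered libraries shared deviations with correlations of 0.139, 0.0597 and -0.00548, and CKO 2 and CKO 3 correlated best with another number (0.141 and 0.0386), so the numbers were not taken as pairs.

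Differences in shares of reads (percentage points, CKO minus flox control) ranged, with 1 library left out, from -2.26 to 0.835 for mRNAs, -0.0152 to 0.00151 for tRNA genes and -2.35 to 0.697 for the plus strand, and stayed negative for rRNAs (-0.304 to -0.199) and the minus strand (-0.206 to -0.0838). As shares of summed FPKM the differences were -0.437 for rRNAs, -0.229 for tRNA genes and -0.859 for the minus strand.

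Of the values of single mitochondrial genes over all settings, 503 kept sign and side of the threshold, 28 changed sign, 18 lost the call and 9 gained it. None of the genes that changed sign was called. Under voom mt-Atp8 was -0.033. Under TPM and under equal FPKM sums mt-Cytb was 0.0162 in both, and mt-Tp was 0.00787 under TPM and 0.00788 under equal sums. With 1 library left out, log2 fold changes ran from -0.10 to 0.29 for mt-Nd1, -1.05 to 0.048 for mt-Tc, -0.38 to 0.71 for mt-Ty, -0.40 to 0.40 for mt-Co2, -0.15 to 0.32 for mt-Atp8, -0.074 to 0.74 for mt-Atp6, -0.92 to 0.53 for mt-Co3, -0.69 to 0.24 for mt-Nd4l, -0.33 to 0.048 for mt-Nd4, -0.35 to 0.080 for mt-Th, -0.028 to 0.37 for mt-Tl2, -0.20 to 0.13 for mt-Cytb and -0.38 to 0.23 for mt-Tp.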
